A study of Homo sapiens with 12 samples.

Results

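The 10 genes VIM, LMNA, ACTB, ACTG1, TMSB4X, TMSB10, CFL1, PFN1, TUBA1B and TUBB were followed through the RNA-sequencing counts of THP1 cells, out of 58735 genes counted. They were named individually as vimentin and 9 other cytoskeletal genes, and all 10 entered the tests, which took in 25873 genes whose summed count reached 10. VIM was picked from the measured values themselves, because it was higher with senescent endothelial cells than with control endothelial cells once the number of the library was a term in the model. That contrast is therefore given for VIM as a description, with no test. The name under which the genes were grouped calls them abundant. This held for 9 of them, which ranked between 5 (ACTB) and 901 (LMNA) by mean CPM (counts per 1000000 counts of the library). It did not hold for VIM in these counts, which ranked 7667 with a mean of 19.1 CPM. VIM was also the lowest of the 10 per kilobase of exon (3.71 CPM per kb). Whether undercounting has a part in this was not tested.

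THP1, spelled ThP1 in the labels, is an established wild-type monocytic line from a human leukemia, and it does not carry the variety of primary monocytes. Co-cultures used transwell inserts with 1 µm pores, THP1 cells at 400000 per well above human umbilical vein ECs at 500000 per well, for 24 h in complete endothelial medium. THP1 mono-culture had the same medium and no ECs. Control ECs had received no etoposide, senECs had been made senescent with etoposide, a topoisomerase poison that damages DNA, and EGCG-treated senECs had received etoposide and EGCG, a catechin of green tea. After this the THP1 cells of all 4 groups, mono-culture included, were taken out and received LPS (100 ng/ml) for 2 h, so none shows the unstimulated state. Each group had 3 libraries, numbered 1, 2 and 3 in mono-culture and with control ECs, and 1, 2 and 5 with senECs and EGCG-treated senECs. The labels do not say whether the numbers mark separate cultures, so the p-values measure the spread between these libraries, which may be technical.

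The cytoskeleton of a monocyte is built from actin filaments, microtubules and intermediate filaments. Actin monomers are held by thymosins and profilin, added to growing filament ends and released again by cofilin, a cycle that drives spreading, migration and phagocytosis. Microtubules are polymers of alpha- and beta-tubulin, and vimentin forms the main cytoplasmic intermediate filament of cells of mesenchymal origin, monocytes and macrophages among them, while lamins line the inside of the nuclear envelope.

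Depth ran from 15439836 to 22092600 counts per library. The third senEC library, number 5, had the lowest scaling factor (0.912, against 0.957 to 1.04 in the other 11) and stood highest of the 12 libraries for 9 of the 10 genes, all but ACTG1, on the TMM scale. Over all genes tested, that library was the highest for 14.97%. With raw library totals in place of TMM it was the highest for 4 of the 10 (TUBB, PFN1, TMSB10 and VIM) and for 8.41% of all genes, so values for senECs are given with and without it where it moves them. The 15 monocyte markers summed to 1213 to 1533 CPM per library in mono-culture, 1218 to 1538 with control ECs, 1304 to 1971 with senECs and 1316 to 1635 with EGCG-treated senECs. The 25 endothelial markers, of which 12 or 13 reached 10 counts in some library of a group, summed to 112 to 124 CPM in mono-culture, where no ECs were present, and to 121 to 135 CPM over the 3 co-cultures. CDH5, the cadherin that defines endothelium, was at 0 with control ECs and with senECs and at a mean of 0.0207 and 0.0212 CPM in the other groups. Not all endothelial markers were flat. With the library number as a term, FLT1 (mean 12.0 CPM) was called higher than in mono-culture beside control ECs (log2 fold change 0.55) and beside senECs (0.60). In the latter COL4A1 was called lower (-0.52). With the group as the only term, 0 of the 20 tested markers were called in either comparison. The part of these levels in the results was not tested.

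VIM encodes vimentin. The gene lies on chromosome 10 (GRCh38, 17228259 to 17237593, plus strand). Its promoter is shown because VIM is the gene whose level ranged most among the 10, and that of ACTG1 because its level ranged least. The sequences are from RefSeq (GRCh38.p14), 250 bases up to the transcription start, chr10:17227991-17228240 on the plus strand and chr17:81512800-81513049 on the minus strand. Capitals mark GGGCGG (the core of an Sp1-type GC box) on either strand, CCAAT and the CArG box, the element bound by serum response factor.
VIM: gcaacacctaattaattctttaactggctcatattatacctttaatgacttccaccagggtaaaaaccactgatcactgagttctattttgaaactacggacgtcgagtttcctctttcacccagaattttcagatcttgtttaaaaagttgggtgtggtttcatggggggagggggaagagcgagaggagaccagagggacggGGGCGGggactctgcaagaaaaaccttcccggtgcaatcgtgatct
ACTG1: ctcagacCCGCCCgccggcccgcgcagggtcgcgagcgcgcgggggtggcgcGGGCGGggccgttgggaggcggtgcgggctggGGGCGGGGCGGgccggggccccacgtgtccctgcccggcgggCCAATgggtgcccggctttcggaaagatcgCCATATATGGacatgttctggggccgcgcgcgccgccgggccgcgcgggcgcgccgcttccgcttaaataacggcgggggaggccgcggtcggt

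GGGCGG was found in all 12 promoter windows of the 9 genes that had an entry (all but ACTB), against 42.6% of 35116 promoters of the same length. In VIM its single copy begins 46 bases before the start. CCAAT stood in 4 of the 12 windows (LMNA, TUBB, CFL1 and ACTG1) against 32.0% of all promoters, and the CArG box only in that of ACTG1, against 1.16%. In the ACTG1 sequence above, CCAAT begins 124 bases and the CArG box 94 bases before the start. The AP-1 motif TGANTCA was in none of the 12, against 6.57%. Both strands were searched, and a match in letters is not evidence of binding.

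In mono-culture, VIM had 4.85, 10.6 and 11.7 CPM in libraries 1, 2 and 3. With control ECs it had 9.07, 11.1 and 21.3 CPM. With senECs it had 13.9, 25.2 and 44.6 CPM in libraries 1, 2 and 5, and with EGCG-treated senECs 16.6, 25.0 and 35.7 CPM. The lowest library of each group was number 1 in all 4 groups. The levels of senECs and EGCG-treated senECs lay wholly above those of mono-culture, while the ranges of mono-culture and control ECs overlapped, as did those of control ECs with both senescent co-cultures and of these with each other. In bulk RNA, more cells with vimentin and more transcript per cell cannot be told apart. The counts behind these values were small, from 78 in the first mono-culture library to 738 in the third senEC library.

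**Figure D1:**
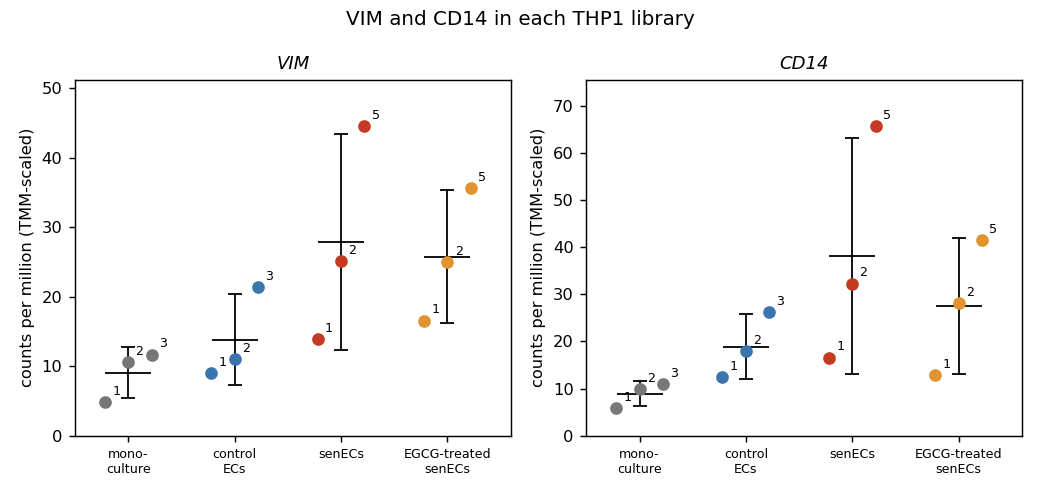
Level of VIM and of CD14 in every THP1 library, as CPM with TMM library sizes on axes that start at 0. Points are libraries with their number, the long line is the group mean and the bar 1 SD (n = 3). Both genes were lowest in mono-culture, with means of 9.04 and 8.92 CPM, and library 1 was the lowest of every group.

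VIM averaged 9.04 ± 3.67 CPM (SD, n = 3) without ECs and 13.8 ± 6.58 CPM beside control ECs, against 27.9 ± 15.5 CPM beside senECs and 25.8 ± 9.57 CPM beside EGCG-treated senECs. Against mono-culture, the log2 fold change was 1.61 ± 0.38 (SE, 3.06-fold) with senECs and 1.50 ± 0.38 (2.84-fold) with EGCG-treated senECs. Neither passed edgeR's quasi-likelihood test after Benjamini-Hochberg adjustment over all genes (adjusted p = 0.0843 and 0.141). All 3 libraries of each group stood above all 3 of mono-culture, as they did for 8.18% of all genes with senECs and 6.4% with EGCG-treated senECs. Both VIM comparisons passed when the library number was a term in the model (1.51 ± 0.16 and 1.47 ± 0.15). VIM was picked from that same fit, so these passes are no separate support. The exact two-sided permutation test of log2 CPM gave p = 0.1 for each, the smallest that 3 against 3 libraries allow. Without senEC library 5 the value with senECs was 1.10 (edgeR adjusted p = 0.536), and without senEC library 1 it was 1.94 and passed (adjusted p = 0.0123). Neither EGCG-treated senECs nor mono-culture was a group of the contrast on which VIM was picked. The model was fitted jointly to all libraries, however, so the SE and adjusted p of that comparison also rest on the libraries of the selecting contrast. They are therefore not independent of the pick. The comparison of senECs with mono-culture in addition shares the senEC group with the selecting contrast.

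Control ECs against mono-culture gave a log2 fold change for VIM of 0.60 ± 0.39 (edgeR adjusted p = 0.874, exact permutation p = 0.5), which was 0.15 without control EC library 3 and 0.30 without mono-culture library 1. EGCG-treated senECs against control ECs gave 0.91 ± 0.37 (adjusted p = 0.979, exact permutation p = 0.2), and ran from 0.60 without EGCG-treated senEC library 5 to 1.36 without control EC library 3. Both of these comparisons share the control EC libraries with the selecting contrast. In that contrast itself, senECs against control ECs, the value was 1.02 ± 0.37 (2.02-fold) without a term for the number and 0.91 ± 0.15 with it, and it ran from 0.50 without senEC library 5 to 1.46 without control EC library 3. Between EGCG-treated senECs and senECs, VIM differed by -0.11 ± 0.36 (edgeR adjusted p = 1.0, exact permutation p = 0.9). That difference was 0.41 without senEC library 5 and 0.13 without EGCG-treated senEC library 1, so its sign was not stable.

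Of the 5158 exonic bases of VIM, 24.4% lie under 2 antisense genes. VIM-AS1, which covers 12.4%, had 8 to 35 counts per library, or 4.34 to 12.2% of the VIM count, and AL133415.1 had none. The sources used here do not say whether counting was by strand, so reads from VIM and VIM-AS1 may not be told apart in the shared stretch. Some list genes had few or no counts in this table. EMD, of the nuclear envelope, had 0 in all 12 libraries, and the monocyte marker CD68 had group means of 0.190 to 0.512 CPM. Other genes cover 85.8% of the exonic bases of CD68 and none of those of EMD. Whether VIM was undercounted was not tested. The mean of VIM-AS1 was 0.964 CPM in mono-culture and 1.22 CPM with control ECs, and it was 1.68 CPM with senECs and 1.87 CPM after their EGCG treatment.

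Likeness to VIM was measured over the 12 libraries as the root mean square difference of log2 CPM, each gene centred on its own mean, among 9350 genes with at least 10 CPM. CD14, the LPS co-receptor of monocytes, was nearest (0.26), and among the nearest were also HP (haptoglobin, 0.31), the cytokine-signalling inhibitor SOCS3 (0.32) and the lysosomal protease cathepsin B (CTSB, 0.33). CD14 had 5.91, 9.90 and 11.0 CPM in mono-culture, 12.4, 18.0 and 26.2 with control ECs, 16.6, 32.3 and 65.7 with senECs and 12.8, 28.1 and 41.6 with EGCG-treated senECs. CD14 rose with senECs against mono-culture (log2 fold change 2.09 ± 0.42, edgeR adjusted p = 0.0363). Its log2 CPM differed by 1.23 for number 1 and 1.53 for number 2. The difference was 2.38 for senEC library 5 against mono-culture library 3. CD14 is named for its likeness to VIM over these same libraries, so its rise is no separate support for that of VIM. By edgeR with the group as the only term, CD14 was 1 of the 2 genes of the lists used here to pass in any comparison. The other was the transcription factor CEBPB (0.64 in the same comparison, adjusted p = 0.0317). Among the other 9 genes TMSB10 was nearest to VIM (0.50, place 89) and ACTG1 farthest (0.76, place 4929).

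**Figure D2:**
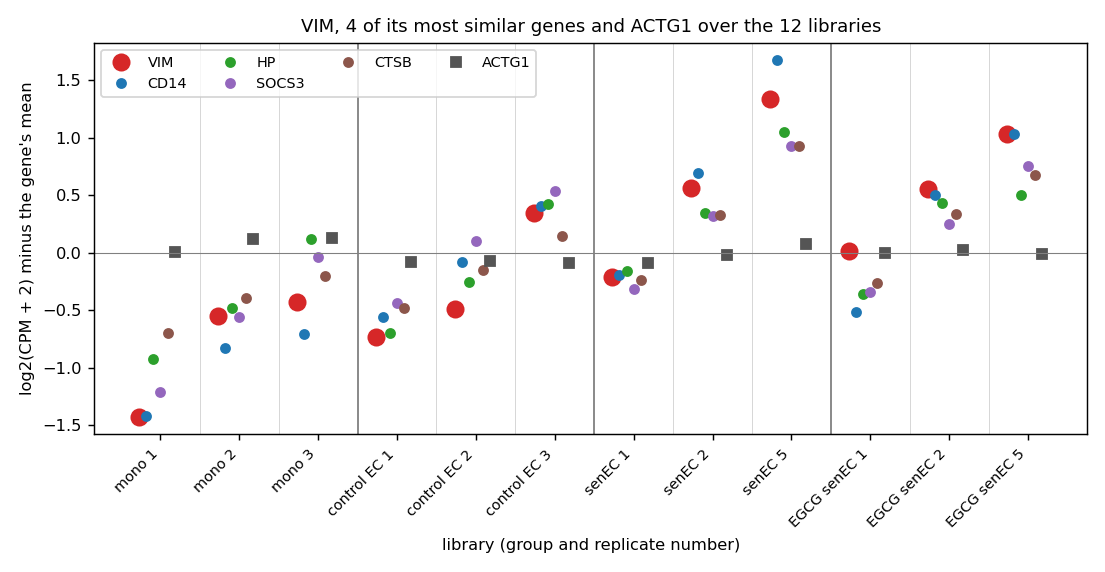
Centred profiles of VIM, 4 of the genes most like it and ACTG1. The vertical axis is log2(CPM + 2) minus the gene's mean over the 12 libraries, and each column is 1 library. VIM and these 4 genes were lowest of their group in library 1 and highest in senEC library 5, while ACTG1 stayed near 0.

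LMNA encodes lamins A and C of the nuclear lamina. It had 196, 191 and 238 CPM in mono-culture, 190, 156 and 184 with control ECs, 223, 214 and 269 with senECs and 265, 189 and 225 with EGCG-treated senECs. All 3 control EC libraries lay below the 3 of mono-culture and the 3 of senECs, the nearest pair in the first case being 190.4 and 191.1 CPM. Against control ECs the log2 fold change was 0.41 ± 0.13 with senECs and 0.36 ± 0.13 with EGCG-treated senECs, the largest of the 9 genes other than VIM in the second and close to the 0.42 of TMSB10 in the first. Neither passed after adjustment (edgeR adjusted p = 0.728 and 0.979). Without senEC library 5 the first was 0.31. The 16 tested intermediate filament and lamin genes include VIM and LMNA. Leaving VIM out of senECs against control ECs, 0 passed edgeR's test in any of the 6 comparisons, and DESeq2 also called 0. At most 5, VIM among them, had an unadjusted p under 0.05 (EGCG-treated senECs against mono-culture, where 8.58% of all genes did). LBR, the lamin B receptor (517 CPM), and LMNB2 (371 CPM) were the most abundant others.

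ACTB and ACTG1 encode the cytoplasmic beta- and gamma-actin. Per kilobase of exon, ACTB was the highest of the 10 at 1670 CPM per kb, ahead of TMSB10 (875) and ACTG1 (816), with LMNA at 30.3 and VIM at 3.71. ACTB had 5564, 6118 and 6138 CPM in mono-culture, 5222, 5576 and 5825 with control ECs, 5374, 6107 and 6544 with senECs, and 5568, 6345 and 6137 with EGCG-treated senECs. These ranges overlapped in every comparison, and the log2 fold changes lay between -0.10 (control ECs against mono-culture) and 0.12 (both senescent co-cultures against control ECs), each with an SE of 0.10.

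ACTG1 had 2450, 2646 and 2674 CPM in mono-culture and only 2293 to 2318 with control ECs, so that those 2 groups did not overlap (log2 fold change -0.17 ± 0.09, edgeR adjusted p = 0.799). With senECs it had 2296 to 2579 CPM and with EGCG-treated senECs 2421 to 2478, the latter wholly above control ECs (0.08 ± 0.09, adjusted p = 0.979). The muscle actins ACTA1 and ACTA2 were at or under a mean of 0.283 CPM. Rows for actin pseudogenes held at most 0.193% of their parent's counts, while ACTB and ACTG1 are themselves nearly identical in coding sequence and could exchange reads.

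Highest over lowest library, ACTG1 ranged 1.17-fold and ACTB 1.25-fold, less than 98.8% and 91.9% of 14397 genes with at least 1 CPM. That background holds genes with few counts, whose ratios are widened by counting noise, and genes of similar level were not set apart. Of 15 genes often used as references, 15 ranged wider than ACTG1 and 14 wider than ACTB, among them GAPDH at 1.70-fold (744 to 1262 CPM), EEF1A1 at 1.54-fold and FTL at 1.92-fold. VIM, picked for a difference between groups, ranged 9.20-fold, wider than all but 1.06% of genes. TMSB10 (2.39-fold) was next of the 10, and the remaining ones lay between 1.30-fold (CFL1) and 1.73-fold (LMNA).

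**Figure D3:**
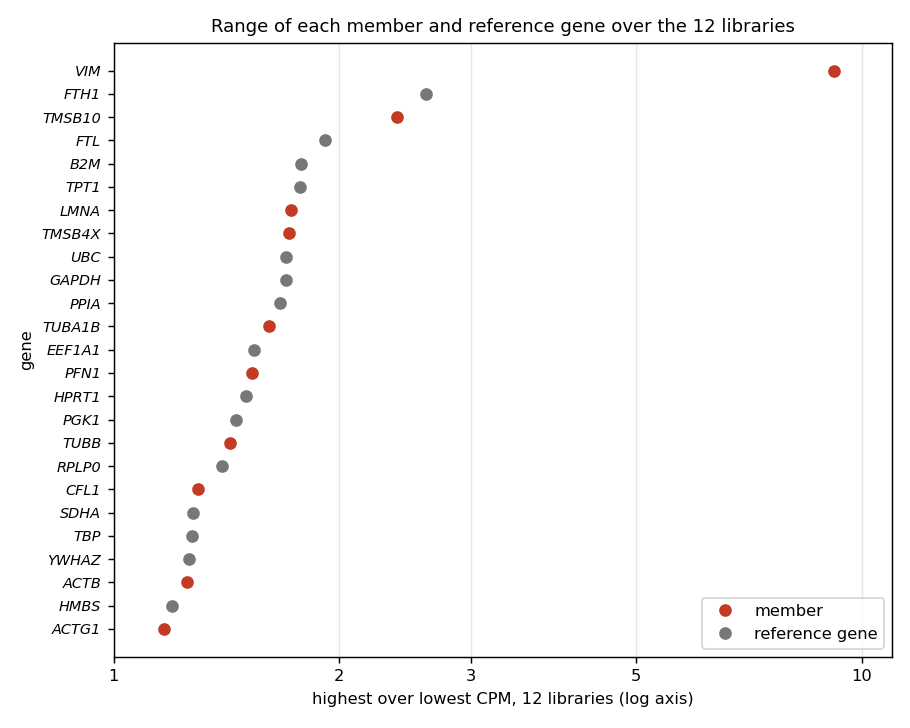
Ratio of the highest to the lowest CPM over the 12 libraries, on a log axis, for the 10 genes and 15 reference genes. ACTG1 (1.17) and ACTB (1.25) lie at the low end and VIM (9.20) far beyond every other gene plotted.

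TMSB4X and TMSB10 encode thymosins beta-4 and beta-10, small peptides that sequester actin monomers. TMSB4X had 853, 1146 and 1130 CPM in mono-culture, 814, 743 and 862 with control ECs, 844, 942 and 1274 with senECs and 820, 991 and 867 with EGCG-treated senECs. Control ECs against mono-culture gave -0.37 ± 0.14 (edgeR adjusted p = 0.665) and senECs against control ECs 0.34 ± 0.14 (adjusted p = 0.728), which was 0.15 without senEC library 5. The groups overlapped in each case.

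TMSB10 had 290, 407 and 453 CPM in mono-culture, 325, 355 and 492 with control ECs, 377, 492 and 694 with senECs and 320, 531 and 473 with EGCG-treated senECs. Its log2 fold change with senECs was 0.44 ± 0.21 against mono-culture (edgeR adjusted p = 0.459) and 0.42 ± 0.21 against control ECs (adjusted p = 0.728), and 0.18 and 0.15 without senEC library 5. Number 1 was the lowest library of TMSB10 in every group, as it was for VIM.

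CFL1, encoding cofilin, which severs filaments, lay between 619 and 803 CPM in all libraries, with log2 fold changes from -0.05 to 0.16 over the 6 comparisons. PFN1, encoding profilin, which loads actin monomers onto growing ends, had 485 to 552 CPM in mono-culture, 491 to 580 with control ECs, 528, 609 and 741 with senECs and 507 to 611 with EGCG-treated senECs. Against control ECs the PFN1 value with senECs was 0.26 ± 0.12 (edgeR adjusted p = 0.728), and 0.12 without senEC library 5. The 26 genes of actin monomer binding and filament turnover include TMSB4X, TMSB10, CFL1 and PFN1, with CAP1 (3701 CPM) and WDR1 (575 CPM) the most abundant others. Of the 26, 20 had a log2 fold change above 0 in senECs against control ECs (median 0.13), and 16 without senEC library 5 (median 0.06). By edgeR 0 passed in that comparison, as by DESeq2. An unadjusted p under 0.05 was reached by 5, TMSB4X and PFN1 among them, against 6.61% of all genes. For the 21 Arp2/3 complex genes and activators, which branch filaments, the count above 0 was 13 (median 0.06), and 13 without that library (median 0.05).

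TUBA1B and TUBB encode an alpha- and a beta-tubulin. TUBA1B had 437, 410 and 338 CPM in mono-culture, 412 to 467 with control ECs, 466, 458 and 545 with senECs and 496, 435 and 447 with EGCG-treated senECs. TUBB had 606, 578 and 592 CPM in mono-culture, 622, 637 and 710 with control ECs, 649, 695 and 828 with senECs and 642, 786 and 691 with EGCG-treated senECs. All 3 libraries of every co-culture stood above the 3 of mono-culture for TUBB, and those of senECs did so for TUBA1B. The log2 fold changes with senECs were 0.31 ± 0.11 for TUBA1B and 0.29 ± 0.11 for TUBB against mono-culture (edgeR adjusted p = 0.302 and 0.332), and 0.23 and 0.18 without senEC library 5. Of 16 tested tubulin genes, TUBA1B and TUBB included, 10 had values above 0 in that comparison (median 0.25). Without senEC library 5 the count was 11 (median 0.13). TUBB4B (628 CPM) and TUBB6 (248 CPM) were the most abundant others. TUBB4B and TUBA1C had 86.3 to 102% and 35.5 to 45.4% of the counts of TUBB and TUBA1B, and reads shared between such near copies may have been split by the counting, which is not stated. Antisense genes cover 36.6% of the exonic bases of TUBA1B and 16.0% of those of TUBB, with at most 9 counts each.

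**Figure D4:**
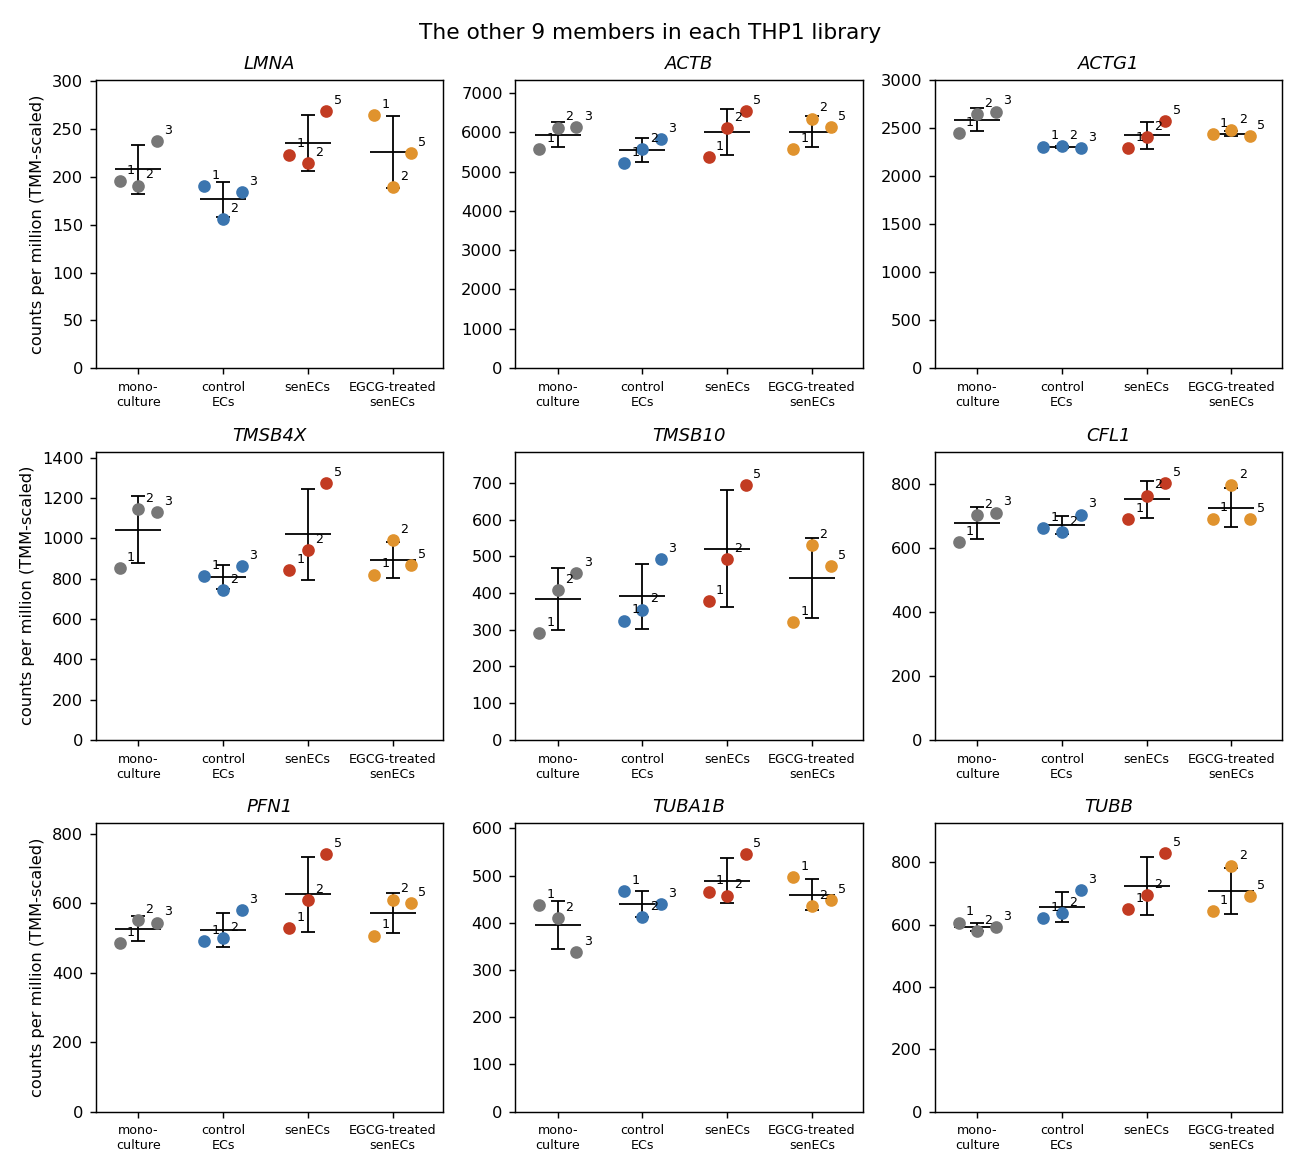
Levels of the 9 genes other than VIM in every THP1 library, as CPM with TMM library sizes on axes that start at 0. Points are libraries with their number, the long line is the mean and the bar 1 SD (n = 3). TUBB lay above its mono-culture level of 578 to 606 CPM in all 9 co-culture libraries, and senEC library 5 was the highest for all but ACTG1.

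By edgeR with the group as the only term, 0 of the 10 reached an adjusted p of 0.05 in any of the 6 comparisons (9 tested in senECs against control ECs), and DESeq2 also called 0. Over all genes the share called was 0.143% for control ECs, 0.309% for senECs and 0.213% for EGCG-treated senECs against mono-culture. The genes called with senECs were 50 higher and 30 lower, and 26 higher and 33 lower with raw library totals. The share was 0.0% for all 3 pairs of co-cultures, where DESeq2 called 0 as well. An unadjusted p under 0.05 was reached by 1 of 10 (TMSB4X) for control ECs, 3 (TUBB, TUBA1B and VIM) for senECs and 2 (TUBB and VIM) for EGCG-treated senECs against mono-culture. It was reached by 3 of 9 (TMSB4X, PFN1 and LMNA) for senECs against control ECs, 0 for EGCG-treated senECs against senECs and 2 (LMNA and VIM) for EGCG-treated senECs against control ECs. The corresponding shares of all genes were 6.52, 11.0, 8.58, 6.61, 2.22 and 4.55%. VIM was picked from these data, so counts that include it are not counts of unselected genes.

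Groups did not overlap for 3 genes in control ECs against mono-culture, TUBB above (6.25% of all genes) and ACTG1 and LMNA below (6.51%). They did not overlap for TUBB, TUBA1B and VIM, all above, in senECs against mono-culture (8.18% of all genes), and for TUBB and VIM in EGCG-treated senECs against mono-culture (6.4%). Among the co-cultures this held for LMNA, above, in senECs against control ECs (5.31%) and for ACTG1, above, in EGCG-treated senECs against control ECs (4.05%), and for none of the 10 between EGCG-treated senECs and senECs. With 10 genes, 1 such gene is close to these shares. VIM was picked from these data, so its place among these genes is no separate support.

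Leaving VIM aside, the 9 genes had a median log2 fold change of 0.16 in senECs against control ECs, with values from 0.07 to 0.42, and 9 of 9 were above 0, while the median of all genes was -0.01. For EGCG-treated senECs against control ECs the median was 0.12 and again 9 of 9 were above 0. These comparisons share the control EC libraries. Without senEC library 5 the first median was 0.11, with 9 of 9 above 0. The 15 reference genes had a median of 0.20 in senECs against control ECs with 15 of 15 above 0, and 0.02 with 14 of 15 above 0 without that library. In EGCG-treated senECs against control ECs their median was 0.095, with 14 of 15 above 0. For the 9 genes, EGCG-treated senECs against senECs gave a median of -0.06 with 7 of 9 below 0. Without senEC library 5 it was 0.02 with 7 of 9 above 0, so the direction was set by that library. With all libraries, the reference genes had a median of -0.11 in that comparison, with 2 of 15 above 0. The 10 genes together took 1.27 ± 0.058% of the counts in mono-culture (SD, n = 3) and 1.17 ± 0.016% with control ECs, and 1.24 ± 0.074% and 1.24 ± 0.030% with untreated and EGCG-treated senECs.

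**Figure D5:**
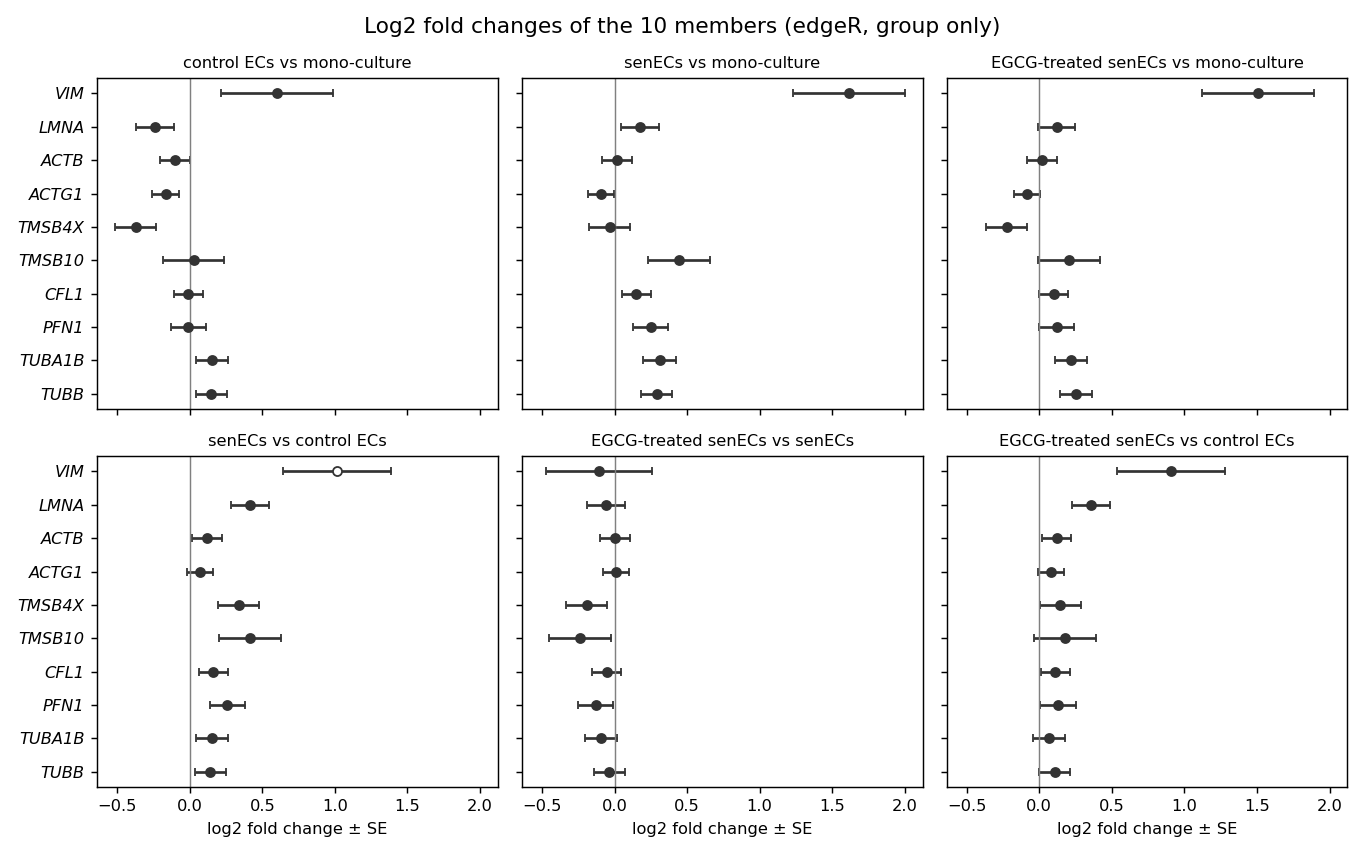
Log2 fold changes of the 10 genes in the 6 comparisons, from edgeR with the group as the only term. Bars are 1 SE, and the open circle marks VIM in the contrast on which it was picked, which has no test. The 9 other genes lay between -0.37 and 0.44, and VIM reached 1.61.

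Because VIM was picked from a fit with the library number as a term, the calls of that fit are given here for all 10 genes. In senECs against control ECs, where 0.591% of all genes were called, LMNA (0.43, edgeR adjusted p = 0.00736) and TMSB10 (0.40, adjusted p = 0.0177) were called. VIM is not counted there, since its pick fixed that call. Against mono-culture the fit called VIM above and TMSB4X below with control ECs (1.81% of all genes), VIM and TMSB10 above with senECs (2.74%) and VIM above with EGCG-treated senECs (1.64%). It called VIM above in EGCG-treated senECs against control ECs (0.131%) and none of the 10 between EGCG-treated senECs and senECs (0.0502%). The comparisons share groups, and the numbers did not meet the criterion for pairing libraries, so these calls rest on a term the labels do not explain. VIM was picked from this same fit, so its calls here are a description and no separate support.

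The 8 lists of cytoskeletal genes held 140 tested genes besides the 10. By edgeR with the group as the only term, 0 were called in any comparison, and 15, 18 and 19 had an unadjusted p under 0.05 in control ECs, senECs and EGCG-treated senECs against mono-culture, 18 in senECs against control ECs, and 1 and 7 when EGCG-treated senECs were set against senECs and against control ECs. In the same order these were 10.7, 12.9, 13.6, 12.9, 0.714 and 5.0% of the 140, beside 6.52, 11.0, 8.58, 6.61, 2.22 and 4.55% of all genes. In senECs against control ECs 91 of the 140 were above 0 (median 0.07), and 84 of 139 without senEC library 5 (median 0.03). DESeq2 called 1 (CYFIP1, which regulates the WAVE complex, -0.29), 5 (TAGLN2, TUBB6, CNN2, TUBG1 and CYFIP1) and 2 (TAGLN2 and CNN2) of them against mono-culture, where it called 0.464, 1.34 and 0.889% of all genes, and 0 in the other 3 comparisons. With the number as a term, which did not meet the criterion for pairing libraries, 7 fell and 0 rose with control ECs against mono-culture. That fit called 1.81% of all genes there, 224 higher and 245 lower. The 7 were the actin-severing gelsolin GSN (-0.42), the actin-bundling fascin FSCN1 (-0.35), the tropomyosins TPM1 (-0.50) and TPM2 (-0.54), TWF2, CAPG and CYFIP1. With senECs against mono-culture, where 2.74% of all genes were called, 5 rose and 2 fell. Those that rose were PLEC (0.39), TUBB6 (0.35), TAGLN2 (0.35), CNN2 (0.33) and RHOC (0.51), and GSN (-0.35) and CAP2 (-0.90) fell. PLEC encodes plectin, a linker of intermediate filaments such as vimentin to other structures. PLEC also rose with EGCG-treated senECs against mono-culture (0.37), as did TAGLN2 (0.32), where 1.64% of all genes were called. It rose with senECs and EGCG-treated senECs against control ECs (0.44 and 0.43), the only one of the 140 called in these last 2 comparisons. There 0.591 and 0.131% of all genes were called. GAPDH, a reference gene, rose with senECs against mono-culture in the same fit (0.44, edgeR adjusted p = 0.000856).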

How the data were processed

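RNA-sequencing covered 12 libraries of THP1 cells in 4 groups. Gene counts were deposited by the authors unnormalized, made from cleaned reads aligned with HISAT2 to hg38 by Novogene. The counting program, strand setting and handling of multi-mapped reads are not given in the sources used here. Rows matched GENCODE release 29 in all 57169 symbols, from which positions and lengths came. A further 4 columns matched no described sample and were not used.

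The test was edgeR 4.0.16 (quasi-likelihood, TMM, Benjamini-Hochberg over the 25873 genes whose counts summed to 10 or more, adjusted p of 0.05, no fold minimum) in R 4.3.3, fitted jointly to the 12 libraries. Standard errors were obtained by dividing log2 fold changes by the root of F. CPM used TMM library sizes, and log2 CPM added a pseudocount of 2. Alternatives were DESeq2 1.42.0, other scalings and filters, the replicate number as a block, a length offset, only the 6 libraries compared and each library left out. Both edgeR and DESeq2 were also run on simulated counts that held no effect of the library number. That run does not show how they behave where such an effect is present. The named genes were all 10 members, the 2 most abundant genes of each list, list genes called with at least 1 CPM (up to 3 per direction, from the block fit where edgeR without it called none) and the 5 genes most like VIM, of which 1 is not reported here. The genes, lists and tests were chosen with earlier results of these data known. The count of genes highest in 1 library was added after the values were seen.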

Additional observations from a re-analysis of the deposited data

How the results depend on the processing

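No member was called by DESeq2, by edgeR with other scaling factors, with its own filter, with a length offset or with only the 6 libraries compared. With no filter on low counts, where 34767 genes were tested, the members called were 1 in control ECs, 2 in senECs and 1 in EGCG-treated senECs against mono-culture and 1 in EGCG-treated senECs against control ECs, VIM each time, and TMSB10 beside it with senECs. Leaving out 1 library gave 0 to 1 members called in senECs against mono-culture (1 without senEC library 1) and 0 elsewhere. VIM was picked from these data, so its calls under these settings are no separate support. Over all genes, the 37, 80 and 55 genes called for control ECs, senECs and EGCG-treated senECs against mono-culture became 120, 347 and 230 by DESeq2, 223, 588 and 377 with no filter, 52, 20 and 35 with only the 6 libraries compared, and 11 to 31, 19 to 255 and 12 to 73 with 1 library left out. With no filter, 114, 14 and 43 were called in place of 0 in senECs against control ECs, EGCG-treated senECs against senECs and EGCG-treated senECs against control ECs.

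The same-numbered libraries did not all deviate together from their group means. Their correlations over 14397 genes were 0.46 to 0.58 for number 1 and 0.03 to 0.34 for number 2, where 2 of 6 exceeded 0.1, and 8 of 12 libraries were most like their own number. The median was 0.38 for same-number pairs and -0.19 for pairs of different numbers. Pairs of a number 3 with a number 5 library were counted apart and had 0.37 to 0.53. The common dispersion, edgeR's estimate of the spread within groups, was 0.0272 with the group as the only term. It was 0.0108 with the number added and 0.0105 with 3 and 5 joined. Part of the spread therefore went with the numbers. They were still not taken as pairing, because the criterion, every same-number correlation over 0.1, was not met. As a replicate block they raised the genes called from 37, 80 and 55 to 469, 709 and 424 against mono-culture, and from 0 to 153 in senECs against control ECs, to 13 in EGCG-treated senECs against senECs and to 34 in EGCG-treated senECs against control ECs. Against mono-culture the block called 2 members with control ECs, 2 with senECs and 1 after EGCG treatment of the senECs. VIM, which was picked from the block fit, was among them each time. The block called 2 of 9 in senECs and 1 (VIM) in EGCG-treated senECs against control ECs. With numbers 3 and 5 joined in the block these were 2, 4, 1, 2 and 1 (400, 1407, 782, 268 and 60 of all genes), with TUBA1B and TUBB added in senECs against mono-culture. TUBA1B turned to -0.020 in EGCG-treated senECs against control ECs under the block. The cause was not tested.

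Other values also changed sign. ACTB turned to -0.0625 (senECs) and -0.0268 (EGCG-treated senECs) against mono-culture with raw totals, to -0.0050 (senECs against mono-culture) with the length offset, and with no filter to -0.012 in EGCG-treated senECs against senECs, where ACTG1 turned to -0.0043. With the length offset CFL1 turned to 0.0018 and PFN1 to 0.013 in control ECs against mono-culture. With 1 library left out, values in EGCG-treated senECs against senECs ran from -0.43 to 0.41 for VIM, -0.18 to 0.056 for LMNA, -0.072 to 0.068 for ACTB, -0.028 to 0.056 for ACTG1, -0.31 to 0.0002 for TMSB4X, -0.43 to 0.023 for TMSB10, -0.24 to 0.0105 for PFN1 and -0.12 to 0.072 for TUBB. In control ECs against mono-culture they ran from -0.072 to 0.027 for CFL1, -0.0905 to 0.033 for PFN1 and -0.18 to 0.17 for TMSB10. In senECs against mono-culture ACTB ran from -0.049 to 0.091 and TMSB4X from -0.22 to 0.087. In EGCG-treated senECs against mono-culture ACTB ran from -0.026 to 0.061 and LMNA from -0.018 to 0.23, and TUBA1B from -0.0029 to 0.11 against control ECs. Counts of VIM were small, from 78 per library.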
